A study of Homo sapiens with 9 samples.

Results

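Gene expression was compared between DIP2C-/- clones and parental RKO, a human colorectal carcinoma cell line, in 4 of the 9 RNA sequencing samples of the series. The members of the comparison were chosen by genotype alone, as the samples labelled parental RKO (RKOparental-1 and RKOparental-2) and those labelled DIP2C-/- (clones E3 and C10). Every sample was 1 library from cells grown for 48 h, and the remaining 5 samples of the series, DIP2C+/- clones, did not enter the test. DIP2C was targeted in exon 9 with a recombinant adeno-associated virus, and clones were grown from single cells after drug selection and removal of the selection cassette by Cre. Both DIP2C-/- clones were made by a second round of targeting in 1 DIP2C+/- clone, and no clone that passed through targeting with DIP2C intact is among the samples, so loss of DIP2C, the clonal origin and the selection cannot be told apart. Nothing in the labels says that the parental samples were separate cultures, so the p-values measure the spread between these samples, which may be technical. In bulk RNA a change per cell and a change in the share of cells expressing a gene cannot be told apart.

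The DIP2 proteins are large, conserved proteins with a DMAP1-binding domain and domains related to acyl-CoA synthetases, and DIP2C is mutated in some breast and lung cancers. RKO cells carry an activating BRAF mutation and have microsatellite instability. They express few of the genes that mark a differentiated colonocyte, which makes them a model of a poorly differentiated colon tumour.

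The deposited totals were 14772593 to 19446537 estimated counts per sample, and 14481 of 23619 genes had at least 10 counts in at least 2 of the 4 samples. Levels are given as CPM, counts scaled to a common library size with edgeR's TMM factors. At this depth 3 counts correspond to 0.155 to 0.2 CPM, the lowest level taken as detectable. Of 9 colon epithelial markers KRT18, a keratin, was at 125 to 270 CPM, KRT8 at 11.5 to 21.8 CPM and CDX2, an intestinal transcription factor, at 15.5 to 18.8 CPM, while EPCAM, KRT19, KRT20, VIL1, CDH1 and CDH17 were at 1.08 CPM or less in all 4 samples. The summed level of the marker lists of fibroblasts was 4.29 to 8.19 CPM, and those of endothelium, neurons, muscle and red cells were lower. PTPRC, which marks leukocytes, was at 0.413 to 0.732 CPM.

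DIP2C itself was at 62.9 and 72.1 CPM in the parental samples and at 18.0 and 22.7 CPM in clones E3 and C10. Both clones lay below both parental samples, a log2 fold change of -1.73 ± 0.17 (SE, n = 2 and 2; edgeR quasi-likelihood test, Benjamini-Hochberg adjusted p = 0.000269), which is 3.32-fold. The gene lies on the minus strand of chromosome 10 (GRCh37, 320141 to 735608), and its exon 9, wholly coding, is at chr10:454866-454957. The 92 bases of that exon, shown because every knockout allele carries a deletion within it, are bases 1058 to 1149 of a coding sequence of 4668 bases.

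DIP2C exon 9: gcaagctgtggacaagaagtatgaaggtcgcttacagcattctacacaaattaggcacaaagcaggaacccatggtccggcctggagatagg

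The deposited files hold 1 value per gene, so reads over the deleted part were not counted separately, and transcripts of a targeted allele still count towards DIP2C. The paralogues did not pass the test, although both passed when every sample had to hold at least 10 counts (adjusted p = 0.047 for DIP2A and 0.044 for DIP2B, edgeR). DIP2A was at 57.2 and 62.3 CPM in parental cells and at 76.7 and 82.7 CPM in the clones, a log2 fold change of 0.42 ± 0.13 (adjusted p = 0.0786, edgeR). DIP2B was at 111 and 109 CPM in parental cells and at 136 and 152 CPM in the clones, with a log2 fold change of 0.39. For both paralogues the groups did not overlap.

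In the fit of these 4 samples, 809 genes rose (5.59% of those tested) and 984 fell (6.8%) in the DIP2C-/- clones at an adjusted p under 0.05 (edgeR quasi-likelihood test). Of these, 136 rose (0.939%) and 171 fell (1.18%) at least 4-fold. Both clones lay above both parental samples for 3856 genes (26.6%) and below both for 4240 (29.3%). The groups did not overlap for any called gene, which a call on these 4 samples largely entails. The median log2 fold change of all tested genes was -0.01. Most changes were modest in size: the median log2 fold change was 0.92 among genes that rose and -0.91 among those that fell.

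**Figure D1:**
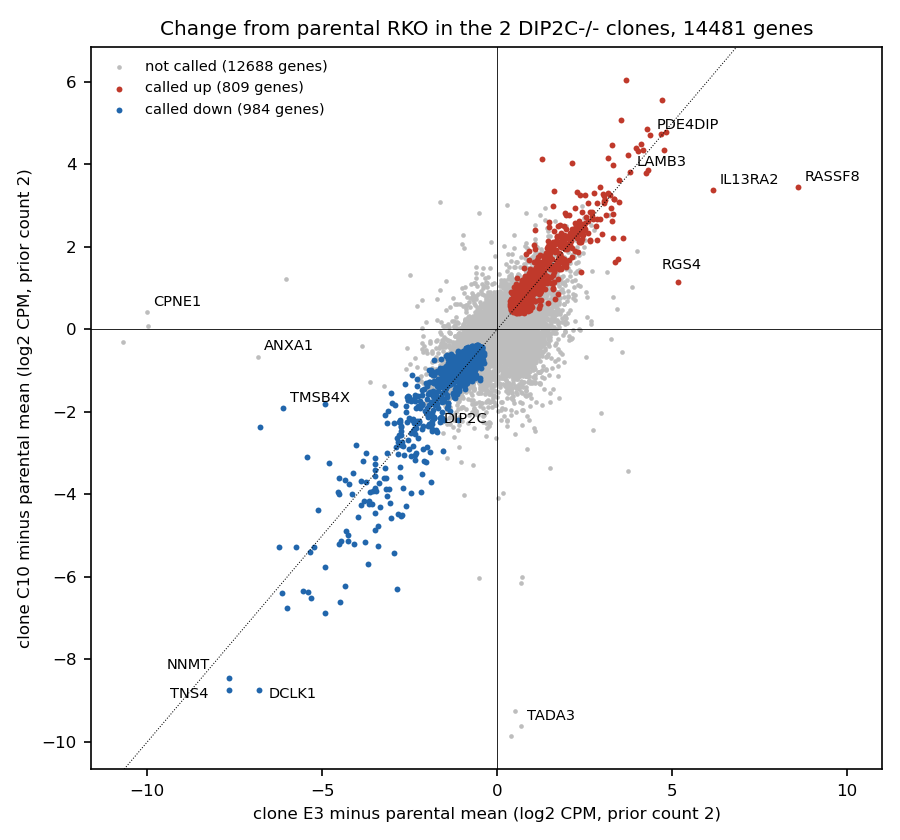
Log2 change from the mean of the parental samples in clone E3 (x axis) against clone C10 (y axis), both as log2 CPM (prior count 2), with 1 point per tested gene and the diagonal dotted. Apart from some such as RASSF8, IL13RA2, RGS4 and TMSB4X, the 809 genes called up and 984 called down lie along the diagonal. ANXA1, not called, lies off it, and CPNE1 and TADA3 are listed at 0 in 1 clone. The call itself favours genes that changed alike in both clones.

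These counts depended on which samples set the error. With all 9 samples in 1 fit, where the spread between DIP2C+/- clones enters the error, 0 genes rose and 1, TNS4, fell, with 1950 genes at an unadjusted p under 0.05, against 3928 in the fit of 4 samples. Without clone H9-A4 among those 9, 399 rose and 389 fell. Leaving out E3 gave 472 up and 428 down, and leaving out C10 gave 436 up and 576 down. In every one of these fits each of the 1793 called genes kept its direction, and 309 of the genes that rose and 345 of those that fell were called in all 4 fits that left out 1 sample.

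The largest rises were of genes nearly silent in parental cells. HGF, the ligand of the MET receptor, was at 0.681 and 0.319 CPM in parental cells and at 16.2 and 15.8 CPM in clones E3 and C10, a log2 fold change of 4.99 ± 0.39 (adjusted p = 7.01e-05, edgeR). CALB2, the calcium-binding protein calretinin, was at 0.511 and 0.957 CPM in parental cells and at 12.5 and 17.0 CPM in the clones, and BCL2A1, an anti-apoptotic BCL2 relative, was at 0.681 and 0.691 CPM against 15.1 and 10.9 CPM. CDKN2A, which encodes p16 and p14ARF, rose from 1.25 and 1.70 CPM to 15.3 and 24.8 CPM (log2 fold change 3.76 ± 0.34, adjusted p = 0.00019). In these genes the clones were close to one another and far from both parental samples.

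Several genes rose from an appreciable parental level. LAMB3, a laminin chain, was at 34.2 and 39.5 CPM in parental cells and at 517 CPM in each clone (log2 fold change 3.81 ± 0.15, adjusted p = 2.11e-06). PDE4DIP, a centrosome and Golgi scaffold with duplicated copies in the genome that can share reads, went from 35.8 and 33.7 CPM to 722 and 905 CPM. MOK, a kinase related to the MAP kinases, was at 8.23 and 5.16 CPM against 169 and 175 CPM, and the transcription factor ETS1 at 30.5 and 26.4 CPM against 242 and 251 CPM. The other genes among the 15 largest rises, RASSF8, ESPNL, AMOTL1, IL13RA2, ACOX2, GEM, RGS4 and FLJ35946, had log2 fold changes between 3.96 and 7.81.

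Among the genes that fell, several were well expressed in parental cells and close to the detection limit in both clones. NNMT, nicotinamide N-methyltransferase, was at 58.0 and 49.6 CPM in parental cells and at 0.133 and 0.0516 CPM in E3 and C10, which is 3 counts in both clones together. The parental level was 615 times that of the clones by the summed counts, with an exact 95% interval of 210 to 2990 that covers counting error only. TNS4, a tensin of focal adhesions, went from 184 and 169 CPM to 0.732 and 0.310 CPM (log2 fold change -8.45 ± 0.27, adjusted p = 2.11e-06, edgeR). DCLK1, a microtubule-associated kinase and a marker of tuft and tumour stem cells, went from 616 and 448 CPM to 4.53 and 1.14 CPM (log2 fold change -7.61 ± 0.49, adjusted p = 2.69e-05).

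SLC1A3, a glutamate transporter, was at 55.4 and 66.4 CPM in parental cells and at 0.732 and 0.620 CPM in the clones, with a log2 fold change of -6.49 ± 0.23. MAP1B, a microtubule-associated protein of neurons, was at 119 and 137 CPM against 1.86 and 1.09 CPM, and GRPR, the gastrin-releasing peptide receptor, at 24.1 and 25.5 CPM against 0.399 and 0.207 CPM. IRS1, the adaptor of insulin and IGF receptors, kept a clear level in both clones but fell with 1 of the 5 smallest p-values, from 326 and 339 CPM to 22.5 and 26.1 CPM (log2 fold change -3.77 ± 0.14). The other genes among the 15 largest falls, SNORA43, TSPAN15, RAB17, KRT80, PDE7B, UCA1, C2orf72, SH3RF2 and CTGF, had log2 fold changes between -7.23 and -5.47. SNORA43 differed between the parental samples, at 4.09 and 24.0 CPM.

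**Figure D2:**
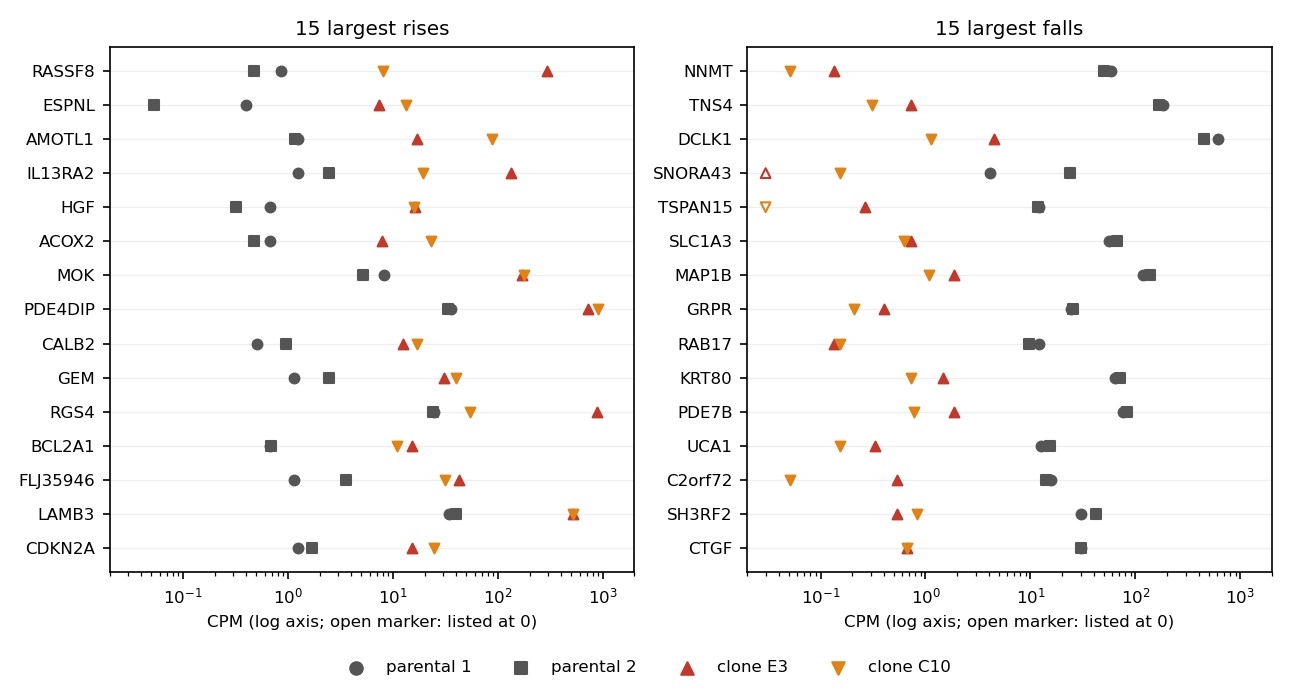
CPM (log axis) in each of the 4 samples for the 15 genes with the largest rises (left) and the 15 with the largest falls (right), ordered by log2 fold change, with open markers for a sample listed at 0. The 30 genes were chosen among those whose groups do not overlap. RASSF8 and RGS4 show the widest gaps between the clones among the rises.

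CpG content was read in the 250 bases before the start of the GENCODE canonical transcript, on GRCh37, CpG being the site of DNA methylation. A window was counted as CpG-rich with an observed to expected CpG ratio of at least 0.6 and a GC content of at least 55%. A window could be read for 13564 tested genes (93.7%), of which 73.1% were CpG-rich. The share was 76.1% among genes that rose and 78.8% among those that fell. Among genes that rose at least 4-fold it was 50.4%, and among those that fell at least 4-fold 64.0%. The median levels of the last 2 sets, 10.8 and 5.86 CPM, were below the 27.5 CPM of all tested genes with a window, and whether level accounts for the lower shares was not tested.

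Several genes induced by DNA damage rose. CDKN1A, the CDK inhibitor p21, was at 99.1 and 95.9 CPM in parental cells and at 230.1 and 276 CPM in the clones (log2 fold change 1.38 ± 0.14, adjusted p = 0.000324, edgeR). RRM2B, a subunit of ribonucleotide reductase, rose from 97.3 and 74.6 CPM to 291 and 289 CPM, and GADD45A, a stress sensor, from 19.4 and 23.2 CPM to 57.5 and 83.0 CPM. MDM2, a ubiquitin ligase, was at 284 and 285 CPM against 493 and 588 CPM. In these 4 genes both clones lay well above both parental samples. SFN, the 14-3-3 sigma protein, fell by 1.56 on the log2 scale. RRM2B lies on chromosome 8, whose genes had a median above the parental mean in both clones, unevenly along its length, as described with the chromosomes.

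The 5 CDK inhibitors that changed moved in both directions. CDKN2A and CDKN1A rose, while CDKN1B (p27), CDKN1C (p57) and CDKN2C (p18) fell, the second from 6.76 and 7.44 CPM to 1.33 and 1.45 CPM (log2 fold change -2.35 ± 0.38, adjusted p = 0.00471, edgeR). CDKN1B was at 35.9 and 34.5 CPM in parental cells and at 18.2 and 19.6 CPM in the clones. The calls on CDKN1B and CDKN2C were lost in at least 1 fit that left out a sample, and without E3 only 1 of the list fell.

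Several genes of cell division fell in the clones. Of 40 tested mitosis genes 11 fell (27.5%, against 6.8% of all genes) and 0 rose (edgeR), with a median log2 fold change of -0.37, a median of -0.33 in E3 and of -0.39 in C10. At an unadjusted p under 0.05, 21 were lower and 3 higher, and of all 14481 tested genes 3928 passed, both directions together. The same background holds for the unadjusted counts of the lists below. TOP2A, topoisomerase II alpha, was at 452 and 429 CPM in parental cells and at 232 and 228 CPM in the clones (log2 fold change -0.94 ± 0.12, adjusted p = 0.00145, edgeR). KIF20A, a kinesin of cytokinesis, was at 104 and 129.5 CPM against 63.0 and 59.1 CPM, and CCNA2, cyclin A, at 169.6 and 143 CPM against 95.8 and 93.3 CPM. CCNB1 and MKI67 did not pass, with log2 fold changes of -0.51 and -0.26. Among the 11, all calls but those on TOP2A and KIF20A were lost in at least 1 fit that left out a sample. The median log2 fold change of the list was -0.36 without E3 and -0.34 without C10. Calls over all genes also dropped without E3 or without C10, so fewer calls in a list there are not particular to that list.

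Genes of DNA replication, G1 and the histones also held members that fell. Of 40 DNA replication genes 5 fell (12.5%) and 0 rose by edgeR (13 lower and 0 higher at an unadjusted p under 0.05), among them ORC6, a subunit of the origin recognition complex, at 70.8 and 65.1 CPM against 32.0 and 32.5 CPM, and MCM10 at 252 and 229 CPM against 124 and 159 CPM. MCM2 did not pass (log2 fold change -0.32). Of 23 G1 cyclins, CDKs and E2F factors 6 fell (26.1%) and 1 rose (4.35%). CDK6 fell from 379 and 346 CPM to 174 and 183 CPM and E2F8 from 28.9 and 33 CPM to 14.5 and 15.8 CPM, while MYC, which lies on chromosome 8, rose from 736 and 768 CPM to 1032 and 1226 CPM (adjusted p = 0.0263, edgeR). Of 63 histone genes, many of them near-identical copies that can share reads, 14 fell (22.2%) and 0 rose by edgeR (31 lower and 1 higher at an unadjusted p under 0.05). That count rested on the parental samples: 41 fell without the first, and 9 fell and 5 rose without the second, while 8 fell without E3 and 3 without C10. Of the replication genes 1 fell without E3, 2 without C10 and 3 without the first parental sample, and of the G1 list 3 fell without either clone, and the calls on MCM10 and MYC were among those lost.

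**Figure D3:**
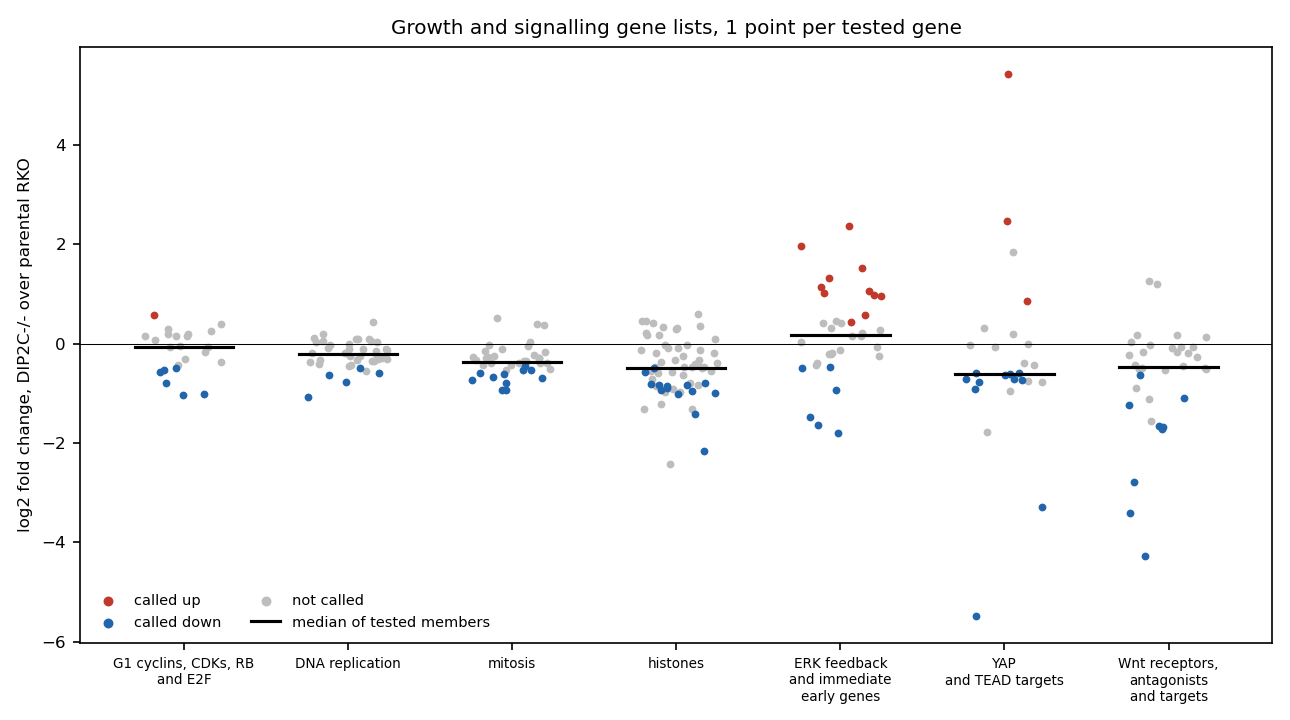
Log2 fold change of each tested gene (y axis) in 7 lists (x axis), with 1 point per gene, coloured by the edgeR call, and a bar at the median of each list. The ERK list has its median at 0.18 and the YAP and TEAD list at -0.61, and the mitosis, DNA replication and histone lists hold no gene called up.

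Genes induced by the ERK pathway changed in both directions. Of 34 feedback and immediate early genes 11 rose (32.4%) and 6 fell (17.6%), with a median log2 fold change of 0.18. JUN, a subunit of AP-1, was at 69.4 and 103 CPM in parental cells and at 404 and 483 CPM in the clones (log2 fold change 2.37 ± 0.20, adjusted p = 0.000122, edgeR). The ERK phosphatases DUSP5 and DUSP6 rose by 1.97 and 1.02 on the log2 scale. Of the Sprouty inhibitors, SPRY4 rose from 176 and 195 CPM to 574 and 486 CPM, whereas SPRY2 fell from 75.7 and 81.4 CPM to 23.4 and 26.8 CPM. Of the FOS relatives, FOS and FOSL1 rose and FOSL2 fell, the last with a log2 fold change of -1.81. EGR1 did not pass, with a log2 fold change of 0.20. Without E3 8 of the list rose and 2 fell, and the call on FOS was lost in at least 1 such fit.

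Several death regulators rose. Of 39 tested BCL2 family members, caspases and death receptors 9 rose (23.1%) and 3 fell (7.69%). Beside BCL2A1, the genes that rose included BCL10, a signalling adaptor (38.5 and 30.4 CPM against 155 and 166 CPM), the inflammatory caspase CASP4 (89.2 and 86.4 CPM against 212 and 234 CPM) and the TRAIL receptor TNFRSF10B (101 and 108 CPM against 215 and 227 CPM). TNFRSF21, death receptor 6, fell from 328 and 325 CPM to 29.1 and 30.9 CPM (log2 fold change -3.44 ± 0.13, adjusted p = 2.11e-06, edgeR). TNFRSF10A and TNFRSF10B are on chromosome 8. Without E3 7 of the list rose and 1 fell, and without C10 5 rose and 3 fell.

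Of 39 listed genes linked to senescent cells, mostly of secreted factors, 19 were tested, of which 6 rose (31.6%) and 2 fell (10.5%). The cytokine LIF rose from 69.3 and 77.1 CPM to 344 and 275 CPM (log2 fold change 2.08 ± 0.15, adjusted p = 5.04e-05, edgeR), PLAUR, the urokinase receptor, by 1.15 and TIMP1, a metalloprotease inhibitor, by 1.12 on the log2 scale. HGF and MMP1 were also among those that rose, MMP1 from a low level of 0.341 and 0.372 CPM to 1.80 and 3.10 CPM. ICAM1 and VEGFA fell, with log2 fold changes of -0.95 and -0.67. The calls on MMP1 and VEGFA were lost in at least 1 fit that left out a sample, and 1 factor fell without E3. IL8, whose groups did not overlap, did not pass (adjusted p = 0.131).

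Several epithelial genes fell in the clones. Of 30 tested junction and keratin genes 9 fell (30.0%) and 1 rose. KRT80, a keratin, fell from 64.1 and 71.6 CPM to 1.465 and 0.723 CPM (log2 fold change -5.99 ± 0.27, adjusted p = 5.5e-06, edgeR), and PKP3, a desmosomal plakophilin, from 102 and 104 CPM to 23 and 29.5 CPM. KRT8 and KRT18 fell, with log2 fold changes of -0.89 and -0.79, but their calls were lost in at least 1 fit that left out a sample. SPINT2, an inhibitor of epithelial proteases, rose by 1.26 on the log2 scale, a call that was lost as well. Without E3 5 of the list fell, and without C10 6 fell and 0 rose.

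Of 9 tested transcription factors of epithelial-mesenchymal transition ZEB1 and ETS1 rose (22.2%, against 5.59% of all genes) and SOX4 fell (11.1%, against 6.8%). All 3 kept their direction in each fit that left out a sample. ZEB1, a repressor of epithelial genes, was at 18.4 and 21.1 CPM in parental cells and at 113 and 119 CPM in the clones (log2 fold change 2.55 ± 0.15, adjusted p = 1.26e-05, edgeR). SOX4 went from 147 and 139.7 CPM to 30.0 and 29.5 CPM. SNAI2 and ZEB2 were at 2.26 CPM or less in every sample and did not pass the test.

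Mesenchymal and contractile genes did not follow 1 direction. Of 25 tested, 4 rose (16.0%) and 8 fell (32.0%), with a median log2 fold change of 0.05. CD44, a hyaluronan receptor, rose from 29.3 and 25.3 CPM to 188 and 271 CPM (log2 fold change 3.07 ± 0.20, adjusted p = 2.67e-05, edgeR), while ACTA2, FBLN5 and LOX rose from below 1 CPM to between 2.73 and 10.7 CPM, the call on LOX being lost in at least 1 fit that left out a sample. CAV1, the coat protein of caveolae, fell from 79.8 and 82.3 CPM to 5.92 and 10.1 CPM, and TAGLN, an actin-binding protein of smooth muscle, from 91.7 and 83.5 CPM to 12.2 and 13.1 CPM. VIM, vimentin, was at 0.738 and 0.851 CPM in parental cells and at 1.06 and 2.17 CPM in the clones and did not pass (adjusted p = 0.332).

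Adhesion genes held some of the largest changes. Of 15 tensins and adhesion scaffolds 5 fell (33.3%) and 2 rose (13.3%). PHLDB2, a cortical scaffold, fell from 59.3 and 59.8 CPM to 2.00 and 6.20 CPM (log2 fold change -3.82 ± 0.37, adjusted p = 0.000303, edgeR). Of 31 integrins and linked genes 3 rose and 3 fell (9.68% each, against 5.59% and 6.8% of all genes). ITGB1 rose from 611 and 492 CPM to 1352 and 1303 CPM, and ITGB5 fell from 95.4 and 118 CPM to 38.0 and 38.6 CPM. Of 62 laminins, collagens and matrix proteins 3 rose (4.84%) and 5 fell (8.06%), shares near those of all genes, and the laminin chains LAMB3 and LAMA1 were among those that rose. LAMA1 was at 104 and 129 CPM in parental cells and at 736 and 827 CPM in the clones. Of these matrix genes 2 fell without E3, and 5 rose and 3 fell without C10. Of 46 matrix proteases and inhibitors 6 rose (13.0%) and 3 fell (6.52%).

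The list of YAP and TEAD targets had the highest share of genes that fell among lists of at least 15 tested genes, 11 of 26 (42.3%), with 3 that rose and a median log2 fold change of -0.61. CTGF, a matricellular protein, was at 30.1 and 30.0 CPM in parental cells and at 0.666 and 0.671 CPM in the clones (log2 fold change -5.47 ± 0.25, adjusted p = 6.41e-06, edgeR). MYOF, a membrane repair protein, fell from 188 and 210.0 CPM to 11.9 and 28.6 CPM. CYR61, a close relative of CTGF, was at 56.2 and 78.5 CPM against 68.4 and 61.0 CPM, with overlapping groups and a log2 fold change of -0.06. The 3 that rose were AMOTL1, which binds YAP, DLC1, a GTPase-activating protein on chromosome 8, and the receptor kinase AXL, the second from 166 and 169 CPM to 934 and 909 CPM. In the fits without E3 or C10, 5 of the list's genes fell in each, and the call on AXL was lost in at least 1 fit that left out a sample.

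Of 34 tested Wnt receptors, antagonists and targets 9 fell (26.5%) and 0 rose by edgeR (17 lower and 1 higher at an unadjusted p under 0.05), with a median log2 fold change of -0.46. AXIN2, a feedback inhibitor and target of beta-catenin, was at 86.9 and 102 CPM in parental cells and at 10.3 and 7.64 CPM in the clones (log2 fold change -3.40 ± 0.19, adjusted p = 1.11e-05, edgeR). SP5 and NOTUM, also feedback targets, had log2 fold changes of -4.27 and -2.78, and the transcription factor TCF7 fell from 53.7 and 46.8 CPM to 14.1 and 16.3 CPM. The receptors LGR4 and LRP6 fell as well, with log2 fold changes of -1.65 and -1.24. LEF1 had overlapping groups and a log2 fold change of -0.06. Of the 9, 7 were called in all 4 fits that left out a sample.

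In the TGF-beta and BMP pathway 7 of 39 fell (17.9%) and 4 rose (10.3%). SMAD3, a signal transducer, fell from 71.5 and 80.0 CPM to 13.0 and 17.0 CPM (log2 fold change -2.33 ± 0.17, adjusted p = 5.4e-05, edgeR), and the targets PMEPA1, SMAD7, ID1 and ID3 also fell, with log2 fold changes of -3.80, -2.48, -2.55 and -1.72. SMURF2, a ubiquitin ligase of receptors and SMADs, rose from 183 and 178 CPM to 906 and 891 CPM. BMP4 rose to 4.19 and 2.58 CPM from 0.341 and 0.691 CPM, a call lost in at least 1 fit that left out a sample, and without E3 2 of the list rose.

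Of 30 receptor kinases and their ligands 11 fell (36.7%) and 2 rose. ERBB3, a neuregulin receptor, was at 62.5 and 70.5 CPM in parental cells and at 5.79 and 6.87 CPM in the clones (log2 fold change -3.39 ± 0.17, adjusted p = 8.12e-06, edgeR). ROR1 and the neurotrophin BDNF fell from low levels, with log2 fold changes of -3.67 and -2.73. MST1R, the receptor related to MET, fell, with a log2 fold change of -1.28, and so did ERBB2 with -0.50, the latter call being lost in at least 1 fit that left out a sample. MET, the HGF receptor, did not pass (125 and 130.2 CPM against 148 and 149.7 CPM), and EGFR had overlapping groups. Without E3 or without C10, 6 of the list fell and 1 rose.

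Among angiogenic ligands and receptors 7 of 26 fell (26.9%) and 4 rose (15.4%). JAG1, a Notch ligand, fell from 281 and 361 CPM to 13.5 and 20.8 CPM (log2 fold change -4.22 ± 0.23, adjusted p = 1.06e-05, edgeR). The 2 neuropilins, receptors of semaphorins and VEGF, moved oppositely: NRP1 rose from 1.25 and 2.18 CPM to 9.92 and 16.7 CPM, and NRP2 fell from 40.6 and 48.0 CPM to 12.6 CPM in each clone. Of the angiogenic genes 3 fell without E3, 4 without C10 and 4 without the second parental sample. Of 63 axon guidance genes 6 rose (9.52%) and 7 fell (11.1%), SEMA3C from 1.87 and 1.75 CPM to 19.2 and 17.1 CPM and EFNA2 from 5.34 and 5.47 CPM to 0.266 and 0.0516 CPM, and 3 fell without E3, while 3 rose and 3 fell without C10.

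Of 29 neuronal cytoskeleton and synapse genes 7 fell (24.1%) and 2 rose (6.9%). Beside DCLK1 and MAP1B, TUBB3, a neuronal tubulin, fell from 51.2 and 63.7 CPM to 6.92 and 19.6 CPM (log2 fold change -2.10 ± 0.38, adjusted p = 0.00741, edgeR). DCDC2, a doublecortin relative of DCLK1, rose from 0.341 and 0.478 CPM to 8.26 and 10.2 CPM. Of 39 HOX genes 8 fell (20.5%) and 1, the antisense transcript HOXD-AS1, rose, with a median log2 fold change of -0.61. HOXB8 was at 6.70 and 7.55 CPM against 2.53 and 2.22 CPM. Of the 8 that fell, 2 were called in all 4 fits that left out a sample, with HOXB8 and HOXD-AS1 among the calls lost, and 3 fell without E3, 4 without C10 and 5 without the first parental sample.

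Single interferon response genes changed in both directions. IFITM1, an antiviral membrane protein, fell from 9.26 and 12.1 CPM to 0.399 and 0.258 CPM (log2 fold change -5.02 ± 0.44, adjusted p = 0.000165, edgeR), and IFI16, a DNA sensor, rose from 19.9 and 23.8 CPM to 183 CPM in each clone. Over the list of 34, 3 rose (8.82%) and 4 fell (11.8%), not far from the shares of all genes, and 1 rose and 2 fell without E3. CD68, a lysosomal protein used as a macrophage marker, rose from 88.6 and 87.7 CPM to 479.7 and 474 CPM. The other 6 leukocyte markers stayed below 1 CPM in all 4 samples, and CD68 made up nearly all of the list's sum, 90.2 and 89.7 CPM in parental cells and 482 and 476 CPM in the clones.

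Of 35 lysosomal genes 5 rose and 5 fell (14.3% each), against 4 and 2 without E3, 3 and 3 without C10 and 3 and 3 without the first parental sample. NPC2, a cholesterol carrier of the lysosome, fell from 263 and 274 CPM to 57.2 and 57.8 CPM (log2 fold change -2.22 ± 0.12, adjusted p = 1.14e-05, edgeR). Of 17 S100 proteins and annexins 4 rose (23.5%) and 0 fell by edgeR (1 lower at an unadjusted p under 0.05), S100A16 from 78.5 and 106 CPM to 452 and 488 CPM, while 2 rose and 1 fell without C10. Of 28 NRF2 targets 4 rose (14.3%) and 7 fell (25%), and without E3 or without C10 2 rose and 2 fell. GLRX, glutaredoxin, and HMOX1, heme oxygenase, rose by 2.48 and 1.58 on the log2 scale, while SLC7A11, the cystine transporter, fell from 83.0 and 67.5 CPM to 35.0 and 29.2 CPM.

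Among 23 glycolysis genes SLC2A3, a glucose transporter, and GAPDH fell (8.7%, against 6.8% of all genes) and 0 rose by edgeR. At an unadjusted p under 0.05, 3 were lower and 4 higher, against 3928 of all 14481 tested genes in both directions together. SLC2A3 went from 456 and 438 CPM to 19.6 and 36.6 CPM (log2 fold change -3.99 ± 0.27, adjusted p = 3.24e-05, edgeR), and GAPDH from 4154 and 3819 CPM to 1967 and 2075 CPM, the latter call being lost without E3 or C10. Of 29 genes of the unfolded protein and ATF4 responses 3 rose (10.3%) and 6 fell (20.7%), against 1 and 2 without E3, 2 and 2 without C10 and 5 and 7 without the second parental sample. PPP1R15A, a phosphatase subunit that restores translation, rose by 1.78 and ASNS, asparagine synthetase, fell by 0.80 on the log2 scale.

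Of 19 genes of the DNA methylation machinery 4 fell (21.1%, against 6.8% of all genes) and 0 rose by edgeR. At an unadjusted p under 0.05, 6 were lower and 1 higher, against 3928 of all 14481 tested genes in both directions together. DNMT3B and DNMT3A, the de novo methyltransferases, fell from 23.7 and 27.0 CPM to 9.39 and 10.8 CPM and from 16.4 and 17.7 CPM to 8.72 and 9.19 CPM (adjusted p = 0.00236 and 0.0194, edgeR), and MBD4 and TET3 fell with log2 fold changes of -0.66 and -0.63. DNMT1, the maintenance methyltransferase, did not pass (322 and 382 CPM against 406 and 469.9 CPM). Of the 4, DNMT3B was called in all 4 fits that left out a sample, and 1 fell without E3, 1 without C10 and 2 without the second parental sample. MSH6, a mismatch recognition protein, fell from 84.5 and 95.8 CPM to 21.6 and 22.9 CPM (log2 fold change -2.02 ± 0.14, adjusted p = 4.34e-05).

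Not every list is described here. Of 19 hypoxia response genes 3 rose (15.8%) and 5 fell (26.3%), and of 21 amino acid transporters 2 rose (9.52%) and 5 fell (23.8%). Some large lists held called genes at shares close to or below the background in the fit of 4 samples. Of 83 oxidative phosphorylation genes 2 rose and 1 fell, and of 79 cytosolic ribosomal proteins 2 rose and 2 fell, although the median of the latter was -0.25. Both counts turned on single samples: without the first parental sample 4 oxidative phosphorylation genes rose and 10 fell and 32 ribosomal protein genes fell, and without the second 7 ribosomal protein genes rose and 1 fell. Without E3 or C10 no more than 1 of either list was called. Of 450 zinc finger genes 13 rose (2.89%) and 25 fell (5.56%), and of 239 small nucleolar and Cajal body RNAs 9 rose (3.77%) and 10 fell (4.18%). The small RNAs also turned on the parental samples, with 55 up and 18 down without the first and 9 up and 41 down without the second, against 12 and 4 without E3 and 7 and 17 without C10. Of the zinc finger genes 6 rose and 9 fell without E3, and 4 rose and 15 fell without C10.

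**Figure D4:**
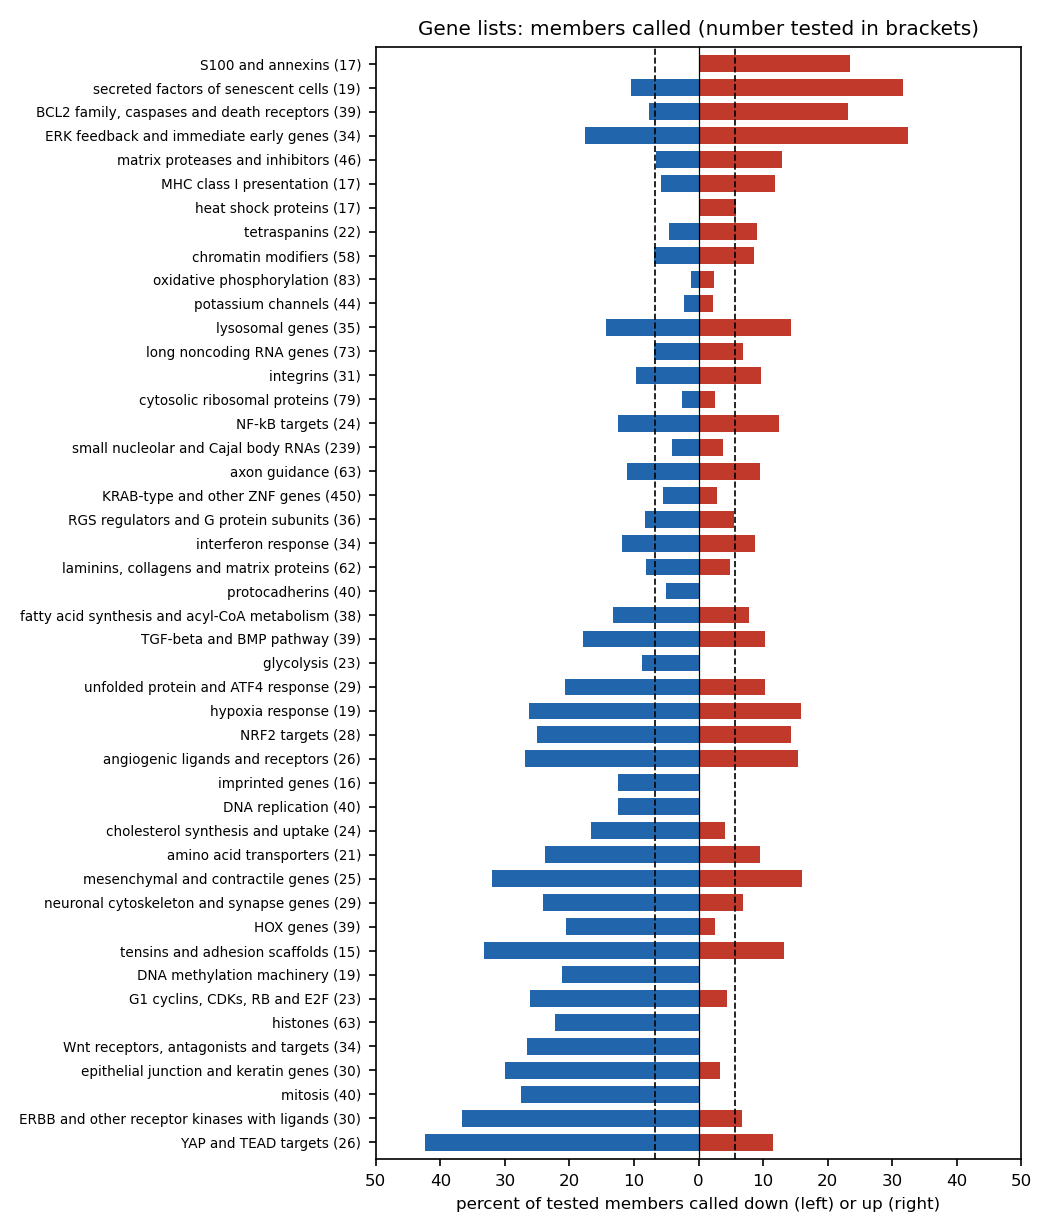
Percent of tested members called up (right, red) or called down (left, blue) in each gene list with at least 15 tested members, ordered by the difference, with the number tested in brackets and dashed lines at the shares of all tested genes, 5.59% and 6.8%. The ERK list reaches 32.4% on the right and the YAP and TEAD list 42.3% on the left, and oxidative phosphorylation and ribosomal protein genes lie inside both dashed lines.

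The clones were alike for most genes but not for all. Of 9725 genes with at least 10 CPM in the higher clone, 22 were at least 4-fold higher in E3 and 13 in C10, and on the same rule 17 of 9804 genes differed 4-fold between the parental samples. At 2-fold the order was the reverse. Of 10110 genes with at least 10 CPM in at least 1 sample, 118 differed between the clones and 161 between the parental samples. RASSF8, a RAS-association domain protein, was at 293 CPM in E3 and 8.11 CPM in C10, against 0.852 and 0.478 CPM in parental cells, and its log2 fold change of 7.81 was 3.63 without E3. RGS4, a regulator of G protein signalling, was at 24.5 and 24.2 CPM in parental cells, 878 CPM in E3 and 54.3 CPM in C10, and its log2 fold change of 4.26 was 1.19 without E3. IL13RA2, a decoy receptor, was at 134 CPM in E3 and 19.4 CPM in C10, while AMOTL1 was at 16.8 CPM in E3 and 87.2 CPM in C10.

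ANXA1, annexin A1, was at 619 and 546 CPM in parental cells, 4.93 CPM in E3 and 367 CPM in C10 and did not pass the test. TMSB4X, thymosin beta 4, fell, from 47.4 and 53.7 CPM to 0.599 CPM in E3 and 13.3 CPM in C10. The widest gaps were of genes listed at exactly 0 in 1 clone. CPNE1, RBM12 and PSIP1 were listed at 0 in E3 and lay between 127 and 235 CPM in the other 3 samples, and TADA3, ARPC4 and AKAP13 were listed at 0 in C10 and lay between 52.75 and 128 CPM elsewhere. CPNE1 and RBM12 overlap on chromosome 20 and TADA3 and ARPC4 neighbour one another on chromosome 3. Such a 0 for widely used genes can be a failed estimate of the quantification rather than a loss of expression, and none of the 6 was called. Leaving them out gave 859 genes up and 1011 down.

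Expression also differed by chromosome. Among 9418 placed genes whose mean reached 10 CPM, the 337 on chromosome 8 had a median of 0.233 in E3 and 0.235 in C10 above the parental mean on the log2 scale, and the other chromosomes lay between -0.109 and 0.05 in E3 and between -0.064 and 0.031 in C10. About as many chromosome 8 genes were above the parental mean in E3 (69.7%) as in C10 (70.0%), against 44.6% and 47.5% of all placed genes. Of the 337, 87 rose (25.8%, against 7.08% of all placed genes) and 23 fell. Over all tested genes, 692 of the 809 that rose lie on other chromosomes, 5.2% of the 13299 genes placed there, and 27 have no position. The same median was 0.14 to 0.331 in 4 DIP2C+/- clones and -0.08 in the fifth, H9-A4. The shift was uneven, with medians over both clones from 0.83 in the window of 10 to 20 Mb to -0.393 in that of 70 to 80 Mb. DNA copy number was not measured in the files used here, and its part in the result was not tested.

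At a finer scale, in 226 windows of 10 Mb with at least 15 genes, 5 windows of E3 and 1 of C10 had a median past 0.5 in size. Beside that on chromosome 8, those of E3 lay at the ends of 10p and 4p. The 52 genes in the first 20 Mb of chromosome 10, where DIP2C lies, had a median of -0.608 in E3 and 0 in C10, and 5.77% of them were above the parental mean in E3 against 50% in C10. The 92 genes in the first 40 Mb of chromosome 4 had a median of 0.609 in E3 and 0.026 in C10. These stretches were chosen after their values were seen, and no test was made of them.

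Of the 10 tested genes around DIP2C, 6 lay below both parental samples in E3 and above both in C10. Another 2 lay below in both clones, against 29.3% of all tested genes, and 1 above in both, against 26.6%. The share of all tested genes with the first pattern was not counted. ZMYND11, the neighbour on the telomeric side, was at 92.9 and 79.8 CPM in parental cells, 59.2 CPM in E3 and 96.2 CPM in C10. LARP4B, on the other side, was at 216 and 228 CPM in parental cells, 174 CPM in E3 and 269 CPM in C10. KLF6, a transcription factor further along the arm, was at 63.2 and 65.2 CPM in parental cells, 28.6 CPM in E3 and 79.5 CPM in C10. In all 3 genes E3 lay below and C10 above both parental samples, whereas DIP2C was below them in both clones. Among these neighbours IDI1, an isomerase of cholesterol synthesis, fell, by 0.56 on the log2 scale (adjusted p = 0.0411, edgeR), a call lost with DESeq2 size factors, without E3 and without either parental sample.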

How the data were processed

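RNA of parental RKO and of DIP2C-edited clones was sequenced on the Ion Proton system. The authors aligned reads to hg19 with Tophat2 (2.0.4 per the submitters' processing notes, which also name Cufflinks 2.2.1) and quantified genes with Cufflinks. The deposited values are 1 estimated count per gene symbol and sample, and how they were scaled is not given in the sources used here. Low values were whole multiples, within 0.1, of a constant in each sample for 98.8% to 99% of them, so an alternative fit used values in units of that constant. Here the estimated counts were rounded to whole numbers, since whole counts had been assumed. Total counts were 14772593 to 19446537 per sample, and an error of sampling alone does not describe the replicates, since the chi-square per degree of freedom was 33.37 between the parental samples and 18 between the clones.

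Genes with at least 10 counts in at least 2 of the 4 samples were tested with edgeR 4.0.16 (TMM factors, quasi-likelihood F test, R 4.3.3) between the genotypes, and called at a Benjamini-Hochberg adjusted p under 0.05 over all 14481. The coefficient of biological variation was 0.1781. SE was derived from the fold change and its F statistic. Single clones were compared with the parental mean as log2 CPM (prior count 2). On simulated counts with that 1 spread for every gene and independent samples, 55.9% of genes changed by 1 on the log2 scale were called. Of those changed by 2, 97% were called, with 7 false calls. Spread that differs by gene, shifts of a whole sample and the shared origin of the clones were not simulated, so the false calls in these data can be more.

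Named genes were those of the DIP2 family, the 5 smallest p-values each way and the 6 widest gaps between clones each way. The 15 largest called changes each way were taken from genes with at least 10 CPM in the higher group and groups that did not overlap. Called members of each list were named by size, with up to 3 uncalled ones. LEF1, CYR61, EGFR, MET, MKI67, CCNB1, DNMT1, VIM and other uncalled genes named for comparison were in those lists, and some were chosen after their values were seen, as were the genes on chromosome 8. The samples, gene lists and rules were chosen with earlier results of these data known. Alternatives were DESeq2 1.42.0 (size factors, Wald test), limma 3.58.1, library size scaling, other filters, all 9 samples, another prior count and each sample left out in turn. After the data had been seen, fits without clone H9-A4 and without genes listed at 0 in 1 sample were added. Positions and exons are from GENCODE 44 on GRCh37, which has hg19 coordinates. Statistics beyond the fits used Python 3.11.15. The authors' microarray methylation data were not used here. Some genes, 1 gene list and promoter sequences are not reported here.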

Additional observations from a re-analysis of the deposited data

How the results depend on the processing

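The numbers of genes that rose and fell kept within 1.5 times of 809 and 984 under other scaling, tests, filters and prior counts, and with the deposited values divided by the value of 1 read. With all 9 samples in the fit they were 0 and 1, and 0 and 1 at 4-fold, where the coefficient of biological variation was 0.2902 against 0.1781, and DIP2C had a log2 fold change of -1.70 that no longer passed (adjusted p = 0.108, edgeR). Without clone H9-A4, a fit added after seeing the data, they were 399 and 389. Requiring 10 counts in all 4 samples gave 86 genes down at least 4-fold, since it removes genes lost in the clones, and DIP2A and DIP2B then passed. Leaving out each sample in turn gave 436 to 938 genes up, 428 to 999 down, 117 to 140 up and 147 to 176 down at least 4-fold, and a DIP2C change of -1.91 to -1.54. The lone sample of a group was then assumed to vary like the other group. Of the genes named for their size of change, p-value or gap between clones, 34 had been called, and they were chosen on these same 4 samples. All 34 kept their direction in each fit that left out a sample. With all 9 samples in the fit 1 of the 34 was still called, and without H9-A4 23 were. With the CpG ratio at 0.75 the CpG-rich shares were 57.7% of genes up, 61.8% of genes down and 59.0% of all, so that genes up, above all genes at 0.6, lay below them, and 34.6% and 48.2% of genes up and down at least 4-fold. At 50 CPM, 10 genes were 4-fold higher in E3 and 5 in C10, since fewer genes qualify. RBM12 kept its direction without each sample, but the direction of other genes listed at 0 in 1 sample turned with the sample left out, and their log2 fold changes ranged from -14.20 to 0.44 for CPNE1, -14.17 to 0.12 for PSIP1, -10.49 to 1.22 for CORO7-PAM16, -13.54 to 0.67 for TADA3, -13.79 to 0.39 for ARPC4, -13.20 to 0.50 for AKAP13, -7.37 to 3.71 for TM4SF19-TCTEX1D2, -10.10 to 0.64 for TTLL3 and -9.92 to 0.70 for ARPC4-TTLL3. No paired analysis was made, since the labels link no DIP2C-/- clone to a parental sample. Depth limits genes near 0.155 to 0.2 CPM, where a fall in the clones has no measured lower end.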

Other observations

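Cholesterol and fatty acid genes changed in part. Of 24 tested genes of cholesterol synthesis and uptake 4 fell and 1 rose (16.7% and 4.17%), and of 38 genes of fatty acid synthesis and acyl-CoA metabolism 5 fell and 3 rose (13.2% and 7.89%). ACOX2, a peroxisomal oxidase of branched-chain acids, was at 0.681 and 0.478 CPM in parental cells and at 7.86 and 23 CPM in clones E3 and C10 (log2 fold change 4.73 ± 0.58, adjusted p = 0.00106, edgeR). CROT, a peroxisomal carnitine transferase, fell from 8.69 and 7.66 CPM to 1.06 and 1.65 CPM. SCD and FASN, which make and desaturate fatty acids, fell, with log2 fold changes of -0.78 and -0.72, but both calls were lost in at least 1 fit that left out a sample. Without E3 1 cholesterol gene and 1 fatty acid gene fell, without C10 2 of each did, and without the first parental sample 2 cholesterol genes fell.

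Among 58 chromatin modifiers 5 rose (8.62%) and 4 fell (6.9%), near the shares of all genes, and without E3 2 rose and 0 fell, without C10 1 rose and 1 fell, and without the first parental sample 6 rose and 2 fell. HDAC9, a class IIa histone deacetylase, was at 9.08 and 7.71 CPM in parental cells and at 70.3 and 80.0 CPM in the clones (log2 fold change 3.16 ± 0.16, adjusted p = 9.28e-06, edgeR). BMI1, a polycomb protein, fell by 0.99 on the log2 scale, a call lost in at least 1 fit that left out a sample. Of 12 surface and other markers of stem cells 4 fell (33.3%) and 1, CD44, rose (8.33%), with DCLK1 the largest fall.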
